A study of Mus musculus with 12 samples.

Results

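R1 and R2 are neighbouring enhancers of the mouse α-globin cluster, and both were read as NG Capture-C viewpoints from the same 6 libraries of CD71+ erythroid cells from day 7 EBs. Their interactions were compared within each library. In this method chromatin is crosslinked, cut with DpnII and ligated, and the junctions of each viewpoint are then enriched and counted by the fragment at their other end. The interactions compared were all entries of the R1 and R2 viewpoints on chromosome 11 (mm9) outside the stretch from 32144385 to 32152574, which holds both viewpoints and the fragments between them. These were 114341 of 772959 entries in the series, 51597 of R1 and 62744 of R2, on 63419 distinct fragments, of which 13882 had interactions from both viewpoints.

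There were 3 WT libraries and 3 D3839 libraries. Embryoid bodies (EBs) were grown from mESCs of the line E14TG2a.IV and disaggregated at day 7, and CD71+ cells were retained on magnetic columns, so that all 6 libraries hold cells selected in the same way. D3839 cells lack the CTCF sites HS-38 and HS-39.5 on both alleles, and WT cells keep them. D3839 was generated as 2 independent clones, so that at least 2 of the 3 libraries share a clone. Which do is not labelled, and n = 3 counts libraries. Replicates 2 and 3, whose names are the closest, were also counted as 1. Contact counts hold no expression, and the erythroid identity of the cells was not checked here.

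The α-globin genes are switched on in erythroid cells by a group of enhancers named R1, R2, R3, Rm and R4. Most of these lie in introns of Nprl3, a widely expressed gene for a regulator of amino acid signalling. R1 and R2 are the strongest of them. CTCF binds DNA in a directional way and can halt loop extrusion by cohesin, so that its sites often mark the edges of domains of interaction. HS-38 and HS-39.5 form the 5′ edge of this domain and separate the enhancers from Snrnp25, Rhbdf1 and Mpg, genes with wide expression. In D3839 the CTCF consensus of each site was replaced by a ScaI restriction site. The sequences are shown because they define the genotypes, with the consensus in capitals.

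HS-38: TACCCTCTGGTGGC

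HS-39.5: CTGGCCACTGGGGG

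ScaI: AGTACT

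The adult α-globin genes Hba-a1 and Hba-a2 are near-identical copies. The run of 247 bases that their promoter windows share (RefSeq, GRCm38.p6, chr11:32283422-32283721 and chr11:32296242-32296541, plus strand) is shown because reads from it cannot be assigned to 1 copy by sequence. Both windows were searched for GATC, the DpnII motif, which reads the same on both strands. Neither holds it in the 250 bases before the start, while 13763 of 32851 promoter windows of that length (41.9%) do, so no capitals are set.

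Hba-a1 and Hba-a2 shared: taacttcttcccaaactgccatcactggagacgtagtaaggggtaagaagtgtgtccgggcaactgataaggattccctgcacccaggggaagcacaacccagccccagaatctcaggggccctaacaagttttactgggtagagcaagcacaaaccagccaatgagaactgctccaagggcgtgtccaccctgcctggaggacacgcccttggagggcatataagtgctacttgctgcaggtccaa

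The globin genes were therefore treated as 1 stretch. The promoter table is on another build than the contact counts, and genes were placed on mm9 only by the viewpoints of the series and by the study's maps.

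The R1 stretch ran from 32144385 to 32146902 and the R2 stretch from 32150164 to 32152574. Their midpoints were 5725.5 bp apart, with R2 on the side of the globin genes. Every fragment on the 3′ side was therefore nearer to R2, and every fragment on the 5′ side was nearer to R1. Both viewpoints were scaled to their own interactions on chromosome 11. In WT these were 16502, 42148 and 39236 interactions for R1 and 27420, 61503 and 61263 for R2. In D3839 they were 31226, 51853 and 50535 for R1 and 39005, 65687 and 61601 for R2. R2 was the deeper viewpoint in every library, by 1.22 to 1.66 times, and WT replicate 1 was the shallowest library. Interactions on chromosome 11 made up 64.0% to 67.7% of all interactions in WT and 72.2% to 78.5% in D3839, with both viewpoints of a library close to each other. Libraries of D3839 differed by 1.08 to 1.27 in chi-square per degree of freedom over fragments within 1 Mb, close to counting noise, and WT libraries by 2.78 to 4.61. R1 and R2 of 1 library differed by 5.24 to 7.46.

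Distance was taken into account by the decay of interactions between 10 kb and 1 Mb from the viewpoints. A power law was fitted to each library, with exponents of 1.372 to 1.502. For each region it gave a log2 ratio of R2 over R1 from the distances of its fragments to each viewpoint, called the distance-set value below. This value was not divided by the law's total over chromosome 11 for each viewpoint, while the shares were scaled to their totals. A shift common to all regions can therefore stay in the values less distance, and their sign depends on it. Within 10 kb of a viewpoint the law is extrapolated. Ratios were tested over the 3 libraries of a genotype by the exact two-sided paired permutation test, which cannot go below 0.25 with 3 pairs. This smallest value was reached wherever all 3 libraries had the same sign.

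**Figure D1:**
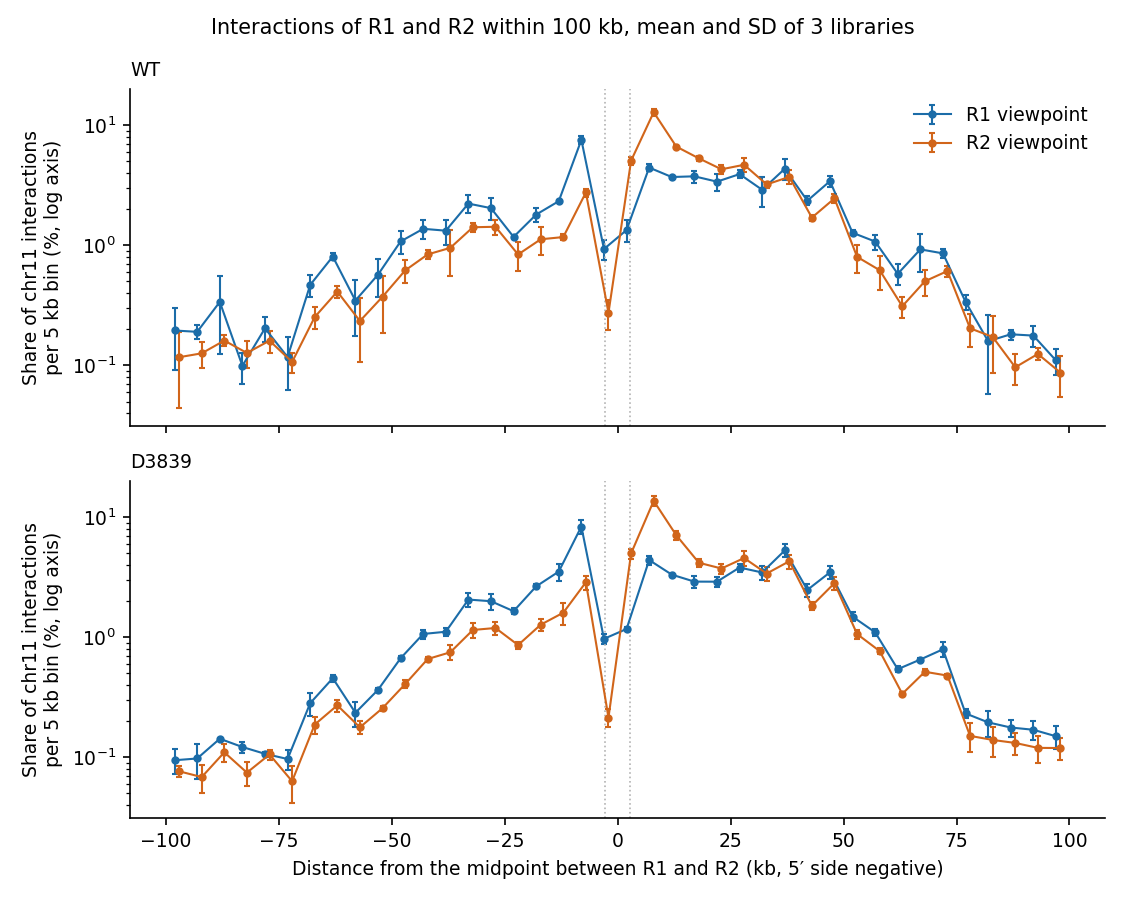
Share of chromosome 11 interactions (%, log axis) of the R1 and R2 viewpoints in 5 kb bins against the distance from the midpoint between the viewpoints, for WT (top) and D3839 (bottom). Points are means and bars are SD of 3 libraries, and dotted lines mark the viewpoints. R1 lies above R2 in most bins of the 5′ side, R2 lies above R1 close to the viewpoints on the 3′ side, and the profiles cross about 30 to 40 kb to the 3′ side.

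Among 30 bins of 5 kb on the 5′ side, up to 150 kb, the share of R1 was higher in every WT library in 23 bins and that of R2 in 1 bin. Over all 385 bins within 1 Mb that held at least 20 counts, R1 was higher in every WT library in 27.3% and R2 in 13.0%. On the 3′ side, R2 was higher in every WT library in 7 of 30 bins and R1 in 14. In D3839 the 5′ side had 19 bins with R1 higher in every library and 0 with R2 higher, and the 3′ side had 16 and 6. The background within 1 Mb in D3839 was 26.0% for R1 and 7.01% for R2. The shapes of both profiles were alike all the same, with correlations of 0.910 to 0.966 between R1 and R2 of 1 library over 60 bins on a log scale. Bins share the decay with distance and the library, so the correlation describes the profiles and is no test.

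The stretch of Nprl3 with R3, Rm and R4 lies between R2 and the globin genes, from 32152575 to 32169921. It was the main partner of R2, which it supplied with 31.9%, 30.5% and 33.6% of interactions in the WT libraries. R1 had 14.97%, 14.3% and 15.5% there. R2 was thus above R1 in every WT library without overlap. The log2 ratio was 1.10 ± 0.0142 (SD, n = 3), a 2.15-fold higher share. In D3839 the shares were 34.8%, 30.1% and 29.6% for R2 and 14.1%, 12.4% and 12.5% for R1. The log2 ratio there was 1.27 ± 0.0309 (n = 3). R2 is the nearer viewpoint, and the distance-set values were larger than those measured, 1.78 in WT and 1.83 in D3839. Much of this stretch lies within 10 kb of R2, where the law is extrapolated, and with an exponent of 1 the D3839 value less distance turned from -0.56 to 0.13. The promoter of Nprl3 itself, read from 32166872 to 32168681, is farther from both viewpoints. R2 was higher there, with 0.43 ± 0.119 as log2 ratio in WT and 0.49 ± 0.0429 in D3839 (n = 3 each), less than the 0.61 and 0.62 set by distance. The order against distance turned with the binned decay curve, to 0.28 above it in WT and 0.33 in D3839.

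The globin genes were taken as the 81 fragments from 32169922 to 32204979. They held 17.2%, 21.0% and 22.4% of R1 interactions in WT and 16.8%, 19.0% and 20.5% of R2 interactions. In D3839 the shares were 24.7%, 20.9% and 20.3% for R1 and 22.8%, 19.2% and 18.6% for R2. Both enhancers thus gave a like share of their interactions to the globin genes, and R1 was slightly above R2 in each of the 6 libraries although R1 is farther away. R2 over R1 gave -0.10 ± 0.0590 on the log2 scale for WT and -0.12 ± 0.00373 for D3839 (n = 3 each, exact paired permutation test, p = 0.25 for each). Distance alone set it at 0.37 in both genotypes. Less distance, the values were -0.47 ± 0.0631 in WT and -0.49 ± 0.0176 in D3839. With 4 other ways to describe the decay they stayed below 0, from -0.34 to -0.51. The sign of the plain ratio rests on the total. When fragments within 10 kb of either viewpoint were also left out of the total, the log2 ratio was 0.033 in WT and 0.0193 in D3839.

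Ratios of regions within 1 viewpoint need no total. R1 had 2.11 ± 0.554 interactions with the globin genes for each interaction with the 5′ genes in WT, and R2 had 2.99 ± 0.770 (n = 3 each). The log2 ratio of these was 0.50 ± 0.0376 for WT and 0.74 ± 0.0437 for D3839 (n = 3 each), and it was positive in every library. Distance set 0.88 and 0.90 for it, more than was measured. Less distance it was -0.38 ± 0.0545 and -0.16 ± 0.0856, below 0 in every library with the power law, but 0.07 and 0.32 with the binned decay curve. Against the 3′ flank, the stretch beyond the globin genes, R2 also had relatively more with the globin genes, with log2 ratios of 0.55 ± 0.190 in WT and 0.40 ± 0.0921 in D3839, where distance set 0.22 in both. Against the stretch of Nprl3 with R3, Rm and R4 it had fewer, with -1.21 ± 0.0667 and -1.39 ± 0.0273. Distance set -1.42 and -1.46 there, and the sign less distance turned with the description of the decay, from -0.32 to 0.43 in WT and from -0.50 to 0.17 in D3839.

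**Figure D2:**
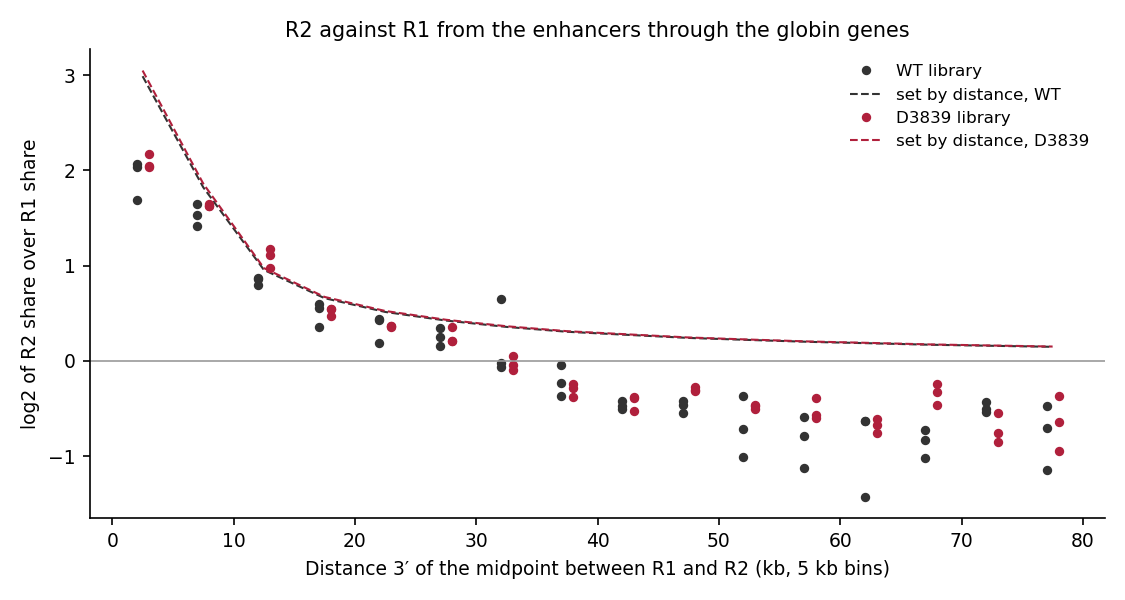
log2 ratio of R2 share over R1 share in 5 kb bins, against the distance to the 3′ side of the midpoint between the viewpoints (kb). Points are libraries, and dashed lines are the values that distance alone sets. The ratio fell from above 1 beside R2 to below 0 in every library between 35 and 80 kb, where the plot ends, while the dashed lines stay above 0.

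The ratio changed along the globin genes. In the bin at 25 to 30 kb it was 0.16, 0.25 and 0.34 in the WT libraries and 0.36, 0.20 and 0.21 in D3839. At 40 to 45 kb it was -0.42, -0.50 and -0.47 in WT and -0.53, -0.38 and -0.39 in D3839. R2 was therefore the higher viewpoint at the near end in every library and R1 at the far end, with no overlap between these bins. The bin at 30 to 35 kb lay between, with 0.65 in WT replicate 1 and -0.10 to 0.05 in the others. Split into 3 runs of 27 fragments, the median log2 ratio of the fitted fragments was 0.26, -0.23 and -0.57 in WT and 0.24, -0.24 and -0.40 in D3839. Less distance the medians were -0.19, -0.55 and -0.79 in WT and -0.20, -0.56 and -0.63 in D3839. Over all 1722 tested fragments the medians less distance were -0.23 in WT and -0.21 in D3839, so that the nearest run lay no lower than the whole and the other runs lay lower. TMM scaling moves the median of all fragments by 0.44 in WT and 0.21 in D3839, which is more than the value of the nearest run. The 18-base stretches at 32183820 to 32183837 and at 32196637 to 32196654, each followed by a fragment of 275 bases, had no counts in the values analysed here. How reads that match both globin copies were treated is not given in the sources used here.

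Single fragments were tested with edgeR (quasi-likelihood, library as a block, distance as an offset) on the 1722 fragments with at least 20 counts over both viewpoints and all libraries. In WT, 75 of them (4.36%) were higher from R2 and 182 (10.6%) higher from R1 at an adjusted p under 0.05. In D3839 they were 2 (0.116%) and 33 (1.92%). Of the 81 globin fragments, 34 were higher from R1 in WT (42.0%, against 10.6% of all fragments) and 26 in D3839 (against 1.92% of all). None was higher from R2, with 1 in WT and 0 in D3839 at an unadjusted p under 0.05, and DESeq2 also called 0. The median log2 ratio of the globin fragments was -0.46 in WT and -0.45 in D3839, and that of all fragments was -0.23 and -0.21. Called in both genotypes were 22 globin fragments, 64.7% of those in WT and 84.6% of those in D3839. Without distance in the test, 20 globin fragments were higher from R1 and 5 from R2 in WT (13.0% and 7.49% of all fragments), and 7 and 2 in D3839 (4.18% and 2.21%). Neighbouring fragments share ligation events and are not independent. With both genotypes in 1 fit, the D3839 calls need all 3 libraries, since 0 globin fragments were called without any D3839 library. In those fits 31 to 35 were higher from R1 at an unadjusted p under 0.05. The D3839 count was 40 without WT replicate 1 and 12 with an exponent of 1. WT calls on leaving out libraries ranged from 16 (without D3839 replicate 2) to 42 (without WT replicate 1). With each genotype fitted alone the order of the genotypes turned. D3839 then had 49 of 81 higher from R1 (60.5%, against 6.27% of all fragments) and WT had 18 (22.2%, against 4.18%). With D3839 replicates 2 and 3 counted as 1, 2 globin fragments were called in D3839 and 30 in WT. TMM factors, which set the median of all fragments 0.44 higher in WT and 0.21 higher in D3839, left 11 globin fragments higher from R1 and 7 from R2 in WT and 0 of either in D3839 (2 and 22 at an unadjusted p under 0.05, higher from R2 and R1). Without the library block, 0 were called in both genotypes, with 1 in WT and 0 in D3839 at an unadjusted p under 0.05. Over all fragments TMM turned the WT split to 148 higher from R2 and 87 from R1, and left 2 and 2 in D3839.

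The fragments with the smallest p in D3839 were, apart from those beside the viewpoints, 3 neighbours in the globin stretch. The fragment from 32187365 to 32187831 had 612, 442 and 437 interactions per 100000 from R1 and 397, 324 and 289 from R2 in D3839. R1 was higher in each library, and the log2 ratio less distance was -0.85 (standard error 0.166, adjusted p = 0.0001085, edgeR). The next fragment on its 5′ side, from 32187033 to 32187364, gave -0.86 (adjusted p = 0.0001085, edgeR), and the one from 32186469 to 32187032 gave -0.78 (adjusted p = 0.0002382, edgeR). In WT the leading globin fragment lay at 32198004 to 32198228, with 164, 311 and 273 interactions per 100000 from R1 and 21.9, 132 and 171 from R2. The log2 ratio less distance was -1.46 (standard error 0.228, adjusted p = 5.956e-08, edgeR). R1 was above R2 in each of the 3 libraries.

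The 3 fragments adjoining the viewpoints had the smallest p in both genotypes, and fragments near the viewpoints turned with the distance setting. At 32144133 to 32144384, directly 5′ of R1, R1 had 818 to 1134 interactions per 100000 in WT and R2 had 190 to 338, a plain log2 ratio of -1.75. Distance set a still lower value, and the ratio less distance was 1.54 (adjusted p = 2.573e-17, edgeR), with 1.16 in D3839 (adjusted p = 7.158e-10, edgeR). The neighbour at 32142086 to 32144132 had 0.60 less distance in D3839 (adjusted p = 0.005661, edgeR) and -1.82 plainly, and the fragment at 32140853 to 32141283 had 0.75 in WT (adjusted p = 0.0005689, edgeR) and -0.88 plainly. On the other side, the fragment at 32152575 to 32152947 next to R2 had 1154 to 1381 from R2 and 202 to 448 from R1 in WT. Its log2 ratio was 1.95 plainly and -1.33 less distance (adjusted p = 2.112e-13, edgeR), and in D3839 it was 2.06 and -1.28 (adjusted p = 1.02e-12, edgeR). The adjoining fragment at 32152948 to 32153291 had -1.09 less distance in WT (adjusted p = 3.335e-11, edgeR) and -0.99 in D3839 (adjusted p = 1.482e-09, edgeR). Each viewpoint thus had more interactions with its own neighbour in every library, by less than the extrapolated law gives. Of the 257 fragments called in WT and the 35 in D3839, 8 and 5 lay within 10 kb of a viewpoint. The number of fragments tested there was not counted, so these are not set against a share of all fragments.

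Snrnp25, Rhbdf1 and Mpg, the 5′ genes, were taken as the 71 fragments from 32104923 to 32135188. R1 had 11.4%, 9.52% and 8.57% of its interactions there in WT, and R2 had 7.88%, 5.90% and 5.66%. In D3839 R1 had 11.8%, 10.3% and 10.1% and R2 had 6.69%, 5.48% and 5.59%. R1 was the higher viewpoint in every library. As log2 ratios these were -0.61 ± 0.0822 for WT and -0.86 ± 0.0442 for D3839 (n = 3 each, exact paired permutation test, p = 0.25 for each). R1 is also the nearer viewpoint here, and distance alone set -0.51 and -0.52. Less distance, WT was at -0.09 ± 0.0833 and D3839 at -0.33 ± 0.0690. The size depended on how the decay was described. The values ran from -0.09 to -0.41 in WT and from -0.33 to -0.66 in D3839 over the power law and 4 other descriptions, with the binned decay curve at the far end of both ranges, so that how much of the excess of R1 distance sets was not settled.

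**Figure D3:**
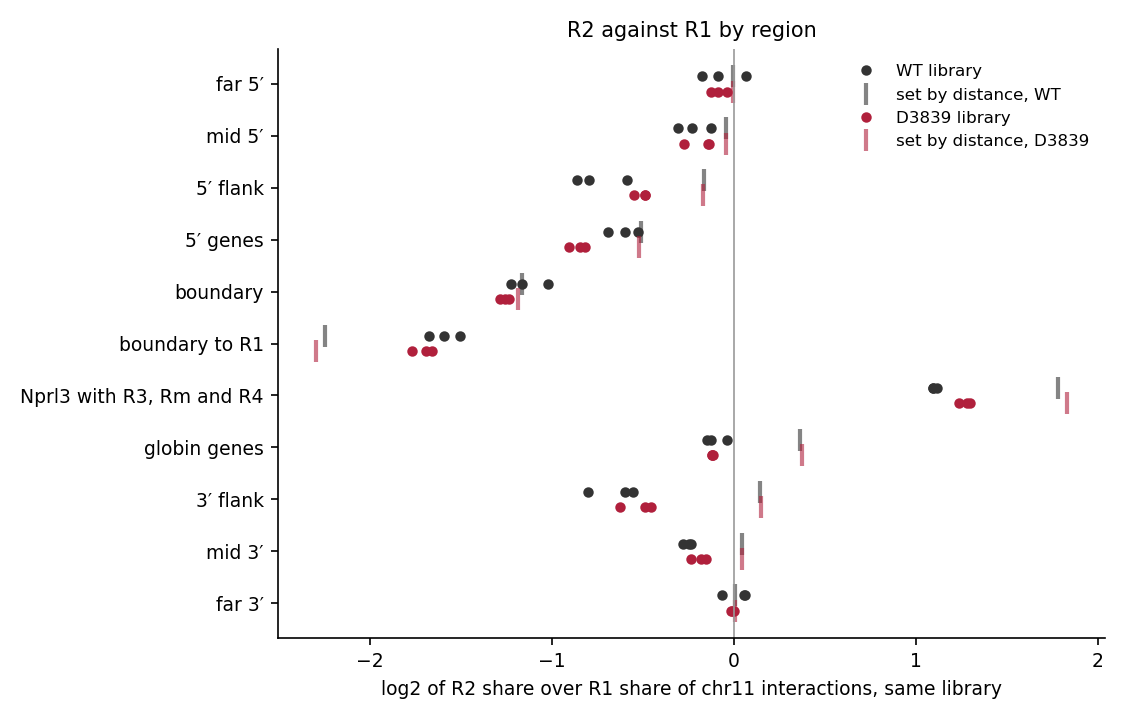
log2 ratio of R2 share over R1 share of chromosome 11 interactions by region, from far 5′ (top) to far 3′ (bottom). Points are libraries and vertical ticks are the values that distance alone sets for each genotype. Globin genes and 3′ flank lie left of their ticks in all 6 libraries, and the boundary lies close to them.

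Single promoters of this side were read over stretches around the promoter viewpoints of the series, which its promoter capture leaves out. With the Rhbdf1 promoter (32121404 to 32123501), R1 had 0.873%, 0.660% and 0.691% in WT and R2 had 0.554%, 0.535% and 0.527%. In D3839 R1 had 0.996%, 0.835% and 0.786% and R2 had 0.572%, 0.496% and 0.430%. R1 was higher in every library. This is a log2 ratio of -0.45 ± 0.184 in WT, where distance set -0.44, and -0.81 ± 0.0593 in D3839, where it set -0.45. Less distance it was -0.0099 and -0.36, and -0.30 and -0.71 with the binned decay curve. Rhbdf1 encodes an inactive member of the rhomboid protease family. Mpg, a DNA glycosylase of base excision repair, had log2 ratios at its promoter (32126077 to 32126672) of -0.76 ± 0.177 in WT and -0.87 ± 0.140 in D3839, beyond the -0.52 and -0.53 set by distance. Within this stretch, the fragment at 32126343 to 32126672 was among the WT fragments with the smallest p. It had 370, 140 and 130 interactions per 100000 from R1 and 51.1, 45.5 and 27.7 from R2, a log2 ratio less distance of -1.66 (standard error 0.269, adjusted p = 2.147e-07, edgeR). R1 was above R2 in every library there too in D3839, and the log2 ratio less distance of -0.46 was not called (adjusted p = 0.6842, edgeR).

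With the promoter of Snrnp25 (32104554 to 32106268), which encodes a protein of the minor spliceosome, the log2 ratio was -0.80 ± 0.514 in WT and -0.80 ± 0.121 in D3839. Its WT libraries spread widely, from -1.29 to -0.27. Il9r, the gene of an interleukin receptor, lies farther 5′ in the flank (promoter stretch 32098986 to 32101248). R1 had 0.418%, 0.358% and 0.441% of its WT interactions there and R2 had 0.135%, 0.177% and 0.199%. Il9r had log2 ratios of -1.26 ± 0.325 in WT and -0.66 ± 0.197 in D3839, beyond the -0.24 set by distance in both. Counts at Il9r were low, with 37 to 173 interactions per library and viewpoint. R1 was the higher viewpoint at each of these 4 promoters in all 6 libraries.

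At the boundary itself, the 15 fragments from 32135189 to 32139864, R1 had 4.75%, 4.54% and 5.02% in WT and R2 had 2.34%, 2.02% and 2.14%. In D3839 R1 had 7.30%, 5.51% and 5.29% and R2 had 3.10%, 2.26% and 2.21%. The log2 ratio was -1.14 ± 0.105 in WT and -1.26 ± 0.0263 in D3839, and distance set -1.17 and -1.19. Less distance it was 0.03 ± 0.0862 in WT and -0.07 ± 0.0846 in D3839, within the spread of the libraries (exact paired permutation test, p = 1 and p = 0.5). No fragment of the 15 was called by edgeR in WT (smallest adjusted p = 0.0632) or in D3839 (smallest adjusted p = 1), and none by DESeq2. At an unadjusted p under 0.05, edgeR had 4 in WT, 3 of them higher from R2, and 0 in D3839. Both measures depended on the setting. With an exponent of 1, edgeR called 4 fragments higher from R1 in WT (26.7%, against 10.7% of all fragments) and 2 in D3839 (13.3%, against 1.1%). With TMM, 5 were higher from R2 in WT (33.3%, against 8.59% of all). Without distance 14 were higher from R1 in WT and 15 in D3839 (against 13.0% and 4.18% of all fragments). The main fit called 10.6% of all fragments higher from R1 and 4.36% higher from R2 in WT, and 1.92% and 0.116% in D3839. The WT value of the region less distance turned with the 4 other descriptions of the decay, to between -0.18 and -0.41. The D3839 value ran from -0.07 to -0.43 over the descriptions, with -0.40 for the binned decay curve. Between the boundary and R1, from 32139865 to 32144384, the log2 ratio was -1.59 ± 0.0854 in WT and -1.71 ± 0.0582 in D3839. This stretch lies within 10 kb of R1, where the distance-set value of -2.25 and -2.30 is extrapolated.

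**Figure D4:**
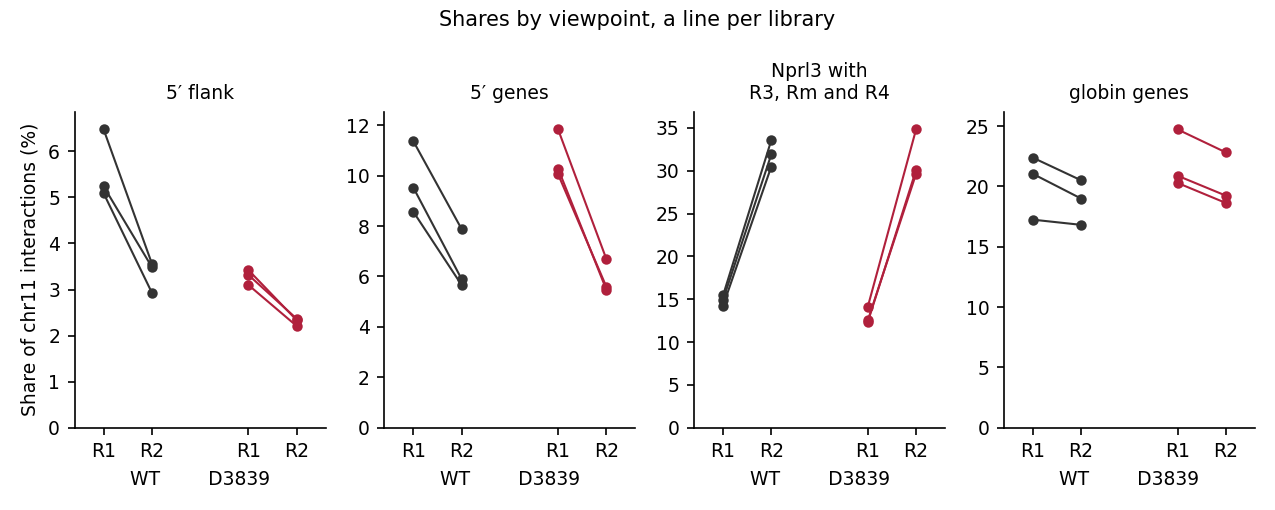
Share of chromosome 11 interactions (%) of R1 and R2 in 4 regions, with a line for each library (WT grey, D3839 red). Lines fall from R1 to R2 at the 5′ flank, 5′ genes and globin genes, and rise at the stretch of Nprl3 with R3, Rm and R4.

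Beyond the domain, R1 again had the larger shares on both sides. In the 5′ flank, from 32009739 to 32104922, R1 had 6.47%, 5.24% and 5.09% in WT and R2 had 3.56%, 3.49% and 2.93%. In D3839 R1 had 3.42%, 3.32% and 3.10% and R2 had 2.34%, 2.37% and 2.21%. R1 was higher in every library. The log2 ratio was -0.75 ± 0.143 in WT and -0.51 ± 0.0371 in D3839, where distance set -0.17 in both. Less distance these were -0.58 and -0.34, and -0.39 and -0.12 with the binned decay curve. In the 3′ flank, from 32204980 to 32280095, R1 had 4.45%, 4.81% and 4.00% in WT and R2 had 2.55%, 3.17% and 2.73%. In D3839 R1 had 3.94%, 4.15% and 4.22% and R2 had 2.55%, 3.02% and 3.00%. R2 is the nearer viewpoint of this flank and was the lower one in all 6 libraries. Its log2 ratio was -0.65 ± 0.134 in WT and -0.52 ± 0.0895 in D3839, and less distance -0.80 and -0.67 (n = 3 each). In the fragment test, 27 of 147 fragments of the 3′ flank were higher from R1 in WT (18.4%, against 10.6% of all fragments) and 1 from R2. In D3839 there were 3 (2.04%, near the 1.92% of all fragments). With TMM 10 were higher from R1 and 2 from R2 in WT, and 0 in D3839 (11 higher from R1 at an unadjusted p under 0.05). The WT count higher from R1 was 5 without D3839 replicate 2, 16 without D3839 replicate 3 and 18 without WT replicate 1, and 1 without the library block. The D3839 count was 14 without WT replicate 1, 12 with DESeq2 and 0 when any 1 D3839 library was left out. With each genotype fitted alone the order turned. There were then 24 higher from R1 in D3839 (16.3%, against 6.27% of all fragments) and 6 in WT (4.08%, against 4.18% of all). Farther out but within 1 Mb, the ratios were -0.22 and -0.25 on the 5′ and 3′ sides in WT and -0.19 and -0.19 in D3839. Beyond 1 Mb they lay close to 0, from -0.08 to 0.02, so that both viewpoints gave about the same part of their interactions to the rest of the chromosome.

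Comparison at equal distance from the own viewpoint, in place of equal positions, gave the same picture on the 3′ side. Between 10 and 20 kb R2 had 11.2% ± 0.681 and R1 6.65% ± 0.340 in WT, a log2 ratio of 0.75 ± 0.0227, and in D3839 it was 0.60 ± 0.0458 (n = 3 each). Between 40 and 80 kb the order was turned, with 6.33% ± 0.553 for R2 and 12.8% ± 0.770 for R1 in WT, a log2 ratio of -1.01 ± 0.0413, and -0.97 ± 0.0548 in D3839. R2 thus had more than R1 close by on its 3′ side and less at middle range. From 80 to 160 kb the ratio was -0.73 ± 0.185 in WT and -0.60 ± 0.233 in D3839. These windows hold different sequences for each viewpoint, since the globin genes lie 24.7 to 59.3 kb from R1 and 18.9 to 53.6 kb from R2.

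**Figure D5:**
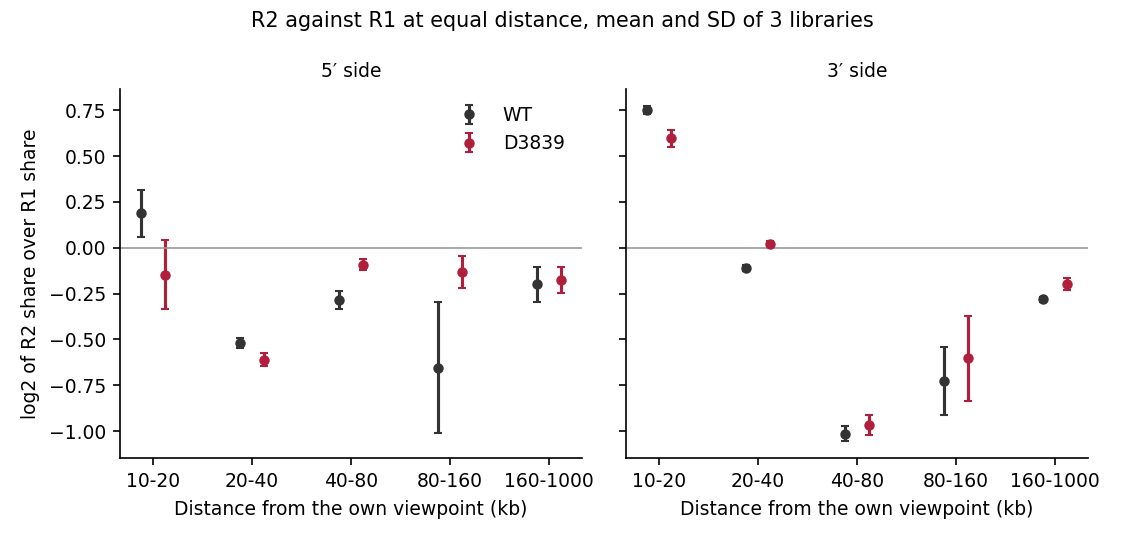
log2 ratio of R2 share over R1 share in windows of equal distance from the own viewpoint (kb), on the 5′ side (left) and 3′ side (right). Points are means and bars SD of 3 libraries. On the 3′ side R2 is higher at 10 to 20 kb and R1 at 40 to 80 kb in both genotypes.

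On the 5′ side R1 was the higher viewpoint at equal distance, apart from the nearest window. The log2 ratio at 10 to 20 kb was 0.19 ± 0.129 in WT and -0.15 ± 0.189 in D3839, where the D3839 libraries lay on both sides of 0. With an inner limit of 5 kb the WT value of that window was -0.82. At 20 to 40 kb the ratio was -0.52 ± 0.0277 and -0.61 ± 0.0355. From 40 to 80 kb it was -0.29 ± 0.0495 and -0.09 ± 0.0296. From 80 to 160 kb it was -0.65 ± 0.357 and -0.13 ± 0.0861, and from 160 to 1000 kb -0.20 ± 0.0949 and -0.18 ± 0.0696. R1 was higher in every library from 20 kb on.

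The decay summarised this. On the 3′ side the exponent was 1.46 ± 0.0216 for R1 and 1.59 ± 0.0230 for R2 in WT, and 1.43 ± 0.0580 and 1.54 ± 0.0765 in D3839. R2 was steeper in every library, by 0.10 to 0.14. On the 5′ side the exponent of R2 minus that of R1 ran from -0.12 to -0.03, so that R2 was less steep in every library. The median distance of 3′ interactions between 10 kb and 1 Mb was 38.5 ± 0.702 kb for R1 and 27.8 ± 0.596 kb for R2 in WT, and 39.6 ± 0.686 kb and 31.3 ± 1.31 kb in D3839. Distances were counted from each viewpoint's own place, and the viewpoints lie 5725.5 bp apart. On the 5′ side the medians did not follow the exponents in WT, with 44.7, 50.3 and 49.6 kb for R1 and 45.8, 50.1 and 46.8 kb for R2, and R1 was the higher in 2 of 3 libraries. In D3839 R1 had 34.2, 37.3 and 38.0 kb and R2 had 34.8, 43.046 and 43.046 kb, R2 being higher in every library. Both enhancers leaned to the 3′ side to a like degree. Of interactions 10 to 100 kb away, 65.3%, 71.9% and 74.2% lay on the 3′ side for R1 in WT, and 67.5%, 73.9% and 76.3% for R2. The paired difference was 2.10 ± 0.0957 percentage points for WT and 2.61 ± 0.763 for D3839 (n = 3 each, exact paired permutation test, p = 0.25 for each). The spread between WT libraries was larger than that difference, and each library had it in the same direction.

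Whether loss of the CTCF sites bears on R1 and R2 alike was read from the difference of the log2 ratios, D3839 minus WT. The exact two-sided permutation test of 3 libraries against 3 cannot go below 0.1. Libraries of the genotypes did not overlap in 4 of 11 regions (36.4%). The ratio of R2 over R1 was lower in every D3839 library at the 5′ genes, with a difference of -0.25 (standard error 0.0539), and at the boundary, with -0.12 (standard error 0.0626). At the boundary the closest libraries of the genotypes were at -1.228 and -1.236, and the difference was -0.064 without WT replicate 1 and -0.166 without WT replicate 3. The ratio was higher in every D3839 library at the 5′ flank, with 0.24 (standard error 0.0855), and at the stretch of Nprl3 with R3, Rm and R4, with 0.17 (standard error 0.0196). Each of these had p = 0.1 in the exact permutation test. At the globin genes the difference was -0.02 (standard error 0.0341, exact permutation test, p = 1), and at the 3′ flank 0.13 (standard error 0.0930, p = 0.3), with overlapping libraries. The value of the 3′ flank was 0.053 without WT replicate 1. The genotypes of this capture were prepared as separate libraries, so a batch that follows the genotype cannot be told apart from it.

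At the 5′ genes, R1 interactions were 0.13 higher in D3839 on the log2 scale and R2 interactions were -0.12 on the same scale, each with overlapping genotypes (exact permutation test, p = 0.4 and p = 0.5). The difference thus separated the genotypes where neither viewpoint did alone. Among the promoters, the Rhbdf1 stretch had a difference of -0.36 (standard error 0.111) and the Il9r stretch of 0.61 (standard error 0.219), both without overlap (exact permutation test, p = 0.1 for each). The stretches of Mpg (-0.11), Snrnp25 (0.001) and Nprl3 (0.06) overlapped. For Mpg the range on leaving out each library was -0.19 to -0.017, with the value nearest 0 without WT replicate 1, -0.0572 without D3839 replicate 2 and the farthest without WT replicate 3 or D3839 replicate 1.

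In the fragment test 2 of 1722 fragments (0.116%) had a higher ratio and 2 (0.116%) a lower ratio in D3839. Both lower ones lay in the 5′ genes. The fragment at 32132754 to 32133075 had 253, 231 and 255 interactions per 100000 from R1 in D3839 and 103, 116 and 99.4 in WT, while R2 had 113, 107 and 90.9 in D3839 and 150, 111 and 96.3 in WT. R1 and R2 were thus near each other in WT, and R1 was above R2 without overlap in D3839. The difference was -1.34 (standard error 0.330, adjusted p = 0.0361, edgeR). Less distance, this fragment was called higher from R2 in WT, with a log2 ratio of 0.84 (adjusted p = 0.009644, edgeR). In D3839 its ratio less distance of -0.50 was not called (adjusted p = 0.4627, edgeR). At 32128762 to 32129460 R1 had 327, 266 and 245 in D3839 and 54.5, 85.4 and 135 in WT, and R2 had 174, 151 and 122 in D3839 and 226, 102 and 91.4 in WT. The difference there was -1.25 (standard error 0.319, adjusted p = 0.0361, edgeR). This fragment too was called higher from R2 in WT less distance (0.95, adjusted p = 0.002616, edgeR), and its D3839 ratio of -0.30 was not called. Without WT replicate 1, which has the highest R2 value and the lowest R1 value of WT at this fragment, its difference was -0.73 and it was not called, while the fragment at 32132754 had -1.19 and was called. When any 1 of the D3839 libraries was left out neither was called, with differences of -1.22 to -1.41 at 32132754 and -1.23 to -1.33 at 32128762. Neither was called with D3839 replicates 2 and 3 counted as 1 (adjusted p = 0.355 for both, edgeR), at a minimum of 60 counts, without a filter or without the library block, and the differences there stayed between -1.24 and -1.34. DESeq2 called the fragment at 32132754 (adjusted p = 0.00667) and not that at 32128762 (adjusted p = 0.182).

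Of the 257 fragments called in WT, 82 (31.9%) lay beyond 1 Mb, 44 higher from R2 and 38 from R1, as did 222 of the 1722 tested (12.9%). In D3839 0 of 35 did, with 3 far fragments at an unadjusted p under 0.05 and 0 by DESeq2. The minimum of 20 counts ran over both viewpoints and all libraries, so that a fragment could be tested through 1 viewpoint of WT alone, and these calls and their absence in D3839 are a description. DESeq2 called 10 in WT, and edgeR called 6 without WT replicate 1 and 12 without D3839 replicate 2, each of the same 222. At a minimum of 60 counts 10 were tested and 6 called. Of the 82, 63 had no interaction from the lower viewpoint in any WT library, 71 had their highest value in WT replicate 1, and 34 had no interaction in any D3839 library. Over all 222 tested these were 86, 133 and 47. The fragment at 30550308 to 30550616 had 273, 40.3 and 22.9 interactions per 100000 from R1 and 0 from R2 in WT. In D3839 both viewpoints had 0 to 1.98. The fragment at 119668335 to 119668351, which is 17 bases long, had 113, 58.5 and 66.9 from R2, 0, 4.75 and 0 from R1, and 0 throughout D3839. At 33882915 to 33883445 R2 had 212, 6.50 and 9.79, and at 23873694 to 23874312 it had 109, 9.76 and 14.7. A count of 0 allows a share of up to 0.0182% in the shallowest library and viewpoint and 0.00457% in the deepest, counting error only. In 61 of the 82, and in 141 of the 222, the higher viewpoint was above 0 in every WT library. Within 1 Mb, WT had 31 fragments higher from R2 and 144 higher from R1.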

How the data were processed

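NG Capture-C interactions of the R1 and R2 viewpoints were taken from the 6 enhancer libraries. The authors deposited counts, unnormalized interactions of a viewpoint with a DpnII fragment, on mm9. The files list fragments with at least 1 interaction, and all others were taken as 0. The submitters' processing notes name Trim Galore and Bowtie, and the interaction caller and treatment of duplicate reads are not given in the sources used here. Repeated PCR reads counted as interactions would raise single fragments. Regions, named fragments, tests and alternatives were chosen with earlier results of these data known.

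Fragments were assigned by midpoint, and shares are of chromosome 11 counts outside the viewpoint stretch. The named fragments are, per genotype, the 5 with the smallest p in each direction at an adjusted p under 0.05 (3 each for the difference), besides the promoter stretches and the boundary. edgeR 4.0.16 in R 4.3.3 used the quasi-likelihood test with a library block, an offset of total and decay, and Benjamini-Hochberg adjustment over 1722 fragments (common dispersion 0.0645). DESeq2 1.42.0, TMM, other totals, filters, decays, 5 kb bins and leaving out libraries were alternatives. Counting D3839 replicates 2 and 3 as 1, since they may share a clone, was added after seeing the data. Exact tests and the decay used numpy 2.4.6 under Python 3.11.15, with pandas 2.3.3 for the tables and matplotlib 3.10.9 for the plots. The library scipy 1.17.1 was also loaded. P-values measure the spread between libraries, which edgeR pooled over both genotypes in a single fit. The edgeR calls of a genotype thus depend also on the spread of the other genotype's libraries.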

Additional observations from a re-analysis of the deposited data

Results flagged for a closer look

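For 4 fragments the ratio of R2 over R1 differed between D3839 and WT in the edgeR test of the difference. The log2 difference was -1.3383 at 32132754 to 32133075 and -1.2537 at 32128762 to 32129460, both in the 5′ genes. At each of these fragments R1 was higher in every D3839 library than in any WT library. The log2 difference was 2.5176 at 32215900 to 32216052 in the 3′ flank (adjusted p = 0.03609, edgeR). R1 had 212, 47.5 and 38.2 interactions per 100000 there in WT and 32.025, 34.7 and 41.6 in D3839, and R2 had 10.9, 16.3 and 11.4 in WT and 30.8, 39.6 and 48.7 in D3839. R2 was thus higher in D3839 without overlap, and R1 was highest in WT replicate 1. The fitted log2 difference was 9.2011 at 30677517 to 30677923, beyond 1 Mb (adjusted p = 0.003925, edgeR). It rests on counts at or near 0 and on the prior count of the fit and is neither a size nor a bound, and the D3839 ratio alone was not called (adjusted p = 0.2996, edgeR). R1 had 255, 19.0 and 10.2 in WT and 0 in D3839, and R2 had 3.65, 1.63 and 0 in WT and 0, 3.04 and 9.74 in D3839. Neither fragment with a higher ratio was called without D3839 replicate 2 or without D3839 replicate 3, and the fragment at 32215900 was not called without D3839 replicate 1 either. The fragment at 30677517 was also not called with the replicate block, at a minimum of 60 counts or without the library block, and that at 32215900 was not called with TMM, at a minimum of 60 counts, without a filter, without the library block or with D3839 replicates 2 and 3 counted as 1. Neither was called without WT replicate 1, where 0 passed in that direction over all fragments (86 at an unadjusted p under 0.05).

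At 20 to 40 kb from the own viewpoint on the 3′ side, every WT library had R1 higher and every D3839 library had R2 higher. The mean log2 ratios were -0.11 ± 0.0152 and 0.02 ± 0.0173 (SD, n = 3 each), 0.132352 apart. The window holds other fragments for R1 than for R2, and the difference was not tested.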

How the results depend on the processing

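Most region values kept their sign. Fragments within 10 kb of a viewpoint set part of the total, and leaving them out turned the globin genes (WT 0.0331, D3839 0.0193), the far 5′ region (WT 0.0720, D3839 0.0558) and the far 3′ region (D3839 0.13). Values less distance close to a viewpoint rested on the extrapolated decay. The WT boundary turned to -0.31 with an exponent of 1, -0.19 with separate exponents for each side, -0.41 with the binned curve and -0.18 with the exponent from outside the domain. The stretch between boundary and R1 turned with an exponent of 1 (WT -0.0362, D3839 -0.15) and with the outside exponent (D3839 -0.0116). The D3839 value of the stretch of Nprl3 with R3, Rm and R4 turned to 0.13 with an exponent of 1 and to 0.0013 with the outside exponent. The Nprl3 promoter turned with the binned curve (WT 0.28, D3839 0.33) and in D3839 with an exponent of 1 (0.0518) and the outside exponent (0.0158). The 5′ window of 10 to 20 kb in WT turned to -0.82 with an inner limit of 5 kb. Without distance, the fragments beside the viewpoints turned: in WT to -1.75 at 32144133, -0.88 at 32140853, 1.95 at 32152575 and 1.83 at 32152948, and in D3839 to -2.19 at 32144133, -1.82 at 32142086 (-0.12 with an exponent of 1), 2.06 at 32152575 and 1.975 at 32152948. The cause was not tested.

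Leaving out each library in turn moved these values across 0: WT values less distance of the boundary (-0.0233 to 0.0554) and Rhbdf1 promoter (-0.0809 to 0.0961), the WT far 3′ region (-0.0026 to 0.0592), and the genotype differences of the far 5′ region (-0.0733 to 0.0487), mid 5′ region (-0.0081 to 0.0829), globin genes (-0.0378 to 0.0178), Snrnp25 promoter (-0.25 to 0.27) and Nprl3 promoter (-0.01 to 0.10). D3839 replicates 2 and 3 counted as 1, a choice made after seeing the data, turned the Snrnp25 difference to -0.011.

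Counts of fragments depended on the setting. In WT, the numbers higher from R2 and from R1 were 129 and 224 without distance, 148 and 87 with TMM, 7 and 53 without a filter, 16 and 104 at a minimum of 60 counts, 48 and 68 without the library block, 25 and 72 with each genotype alone, 53 and 98 in 5 kb bins, and 23 and 136 with DESeq2. In D3839 they were 38 and 72 without distance, 1 and 19 with an exponent of 1, 2 and 2 with TMM, 1 and 6 without a filter, 0 and 0 without the library block (5 and 6 at an unadjusted p under 0.05, edgeR), 4 and 108 with the genotype alone, 2 and 12 in 5 kb bins, 1 and 4 with replicates 2 and 3 as 1, and 2 and 61 with DESeq2. For the difference, higher and lower in D3839 were 1 and 3 with TMM, 1 and 0 without a filter, 0 and 0 at a minimum of 60 counts (40 and 34 unadjusted), 0 and 0 without the library block (76 and 73 unadjusted), 5 and 0 in 5 kb bins, 1 and 0 with replicates 2 and 3 as 1, and 7 and 3 with DESeq2. Leaving out each library gave 7 to 95 higher from R2 and 41 to 192 higher from R1 in WT, 1 to 2 and 2 to 72 in D3839, and 0 to 8 and 0 to 7 for the difference. The lowest WT counts came without D3839 replicate 2 (7 and 41), with 14 and 102 without WT replicate 1 and 42 and 115 without D3839 replicate 3. D3839 counts higher from R1 were 2 when any 1 D3839 library was left out and 72 without WT replicate 1.

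Whether the replicate numbers pair the genotypes is not labelled. The deviations of same-numbered libraries correlated at -0.006, -0.511 and 0.168 over 60 bins, and a single value per number cannot settle it. With the replicate block the difference had 2 and 2 fragments, 3 of them among the 4 called without it. The fragment at 30677517 was not called (adjusted p = 0.0994, edgeR), and that at 31741646 to 31742782 was (3.41, adjusted p = 0.0495, edgeR). With 3 libraries a genotype, no region value could pass an exact test at 0.05, and single fragments beyond 1 Mb rest on few counts.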
